A study of Homo sapiens with 16 samples.

Results

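Formoterol, a long-acting beta-adrenergic agonist used as a bronchodilator, was added to human liver cells that were also given palmitic and oleic acid, and their RNA was compared with that of cells given the fatty acids alone. The cells were differentiated HepaRG, a human liver line that matures into 2 kinds of cell, hepatocyte-like and cholangiocyte-like. All cells were kept in 2% DMSO after differentiation and during the experiment, and all growth medium held insulin and the glucocorticoid triamcinolone acetonide. The fatty acid group received 0.25 mM palmitic acid with 0.5 mM oleic acid for 3 days, with medium changed daily, and the combination group received the same fatty acids with 30 nM formoterol. The members of the comparison are all 8 libraries with fatty acids, 4 per group, of 16 libraries in the series. The other 8 libraries, 4 of a BSA vehicle control and 4 of 30 nM formoterol without fatty acids, were used for the shared estimate of the spread and for asking whether the effect of formoterol differed with and without fatty acids. Of 58735 genes counted, 18121 had enough counts to be tested. The labels call the libraries independent replicates but do not say whether the cultures were separate. The p-values then cover only the spread between these samples, which may be technical. In bulk RNA, fewer cells of a type and less RNA per cell cannot be told apart.

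Beta-adrenergic stimulation acts through the stimulatory G protein Gs, which activates adenylyl cyclase and raises cyclic AMP (cAMP). cAMP activates protein kinase A, which phosphorylates the transcription factor CREB, and CREB bound to cAMP response elements in promoters switches on target genes. In liver this is the pathway through which glucagon and adrenaline act on glucose output and amino acid use. Its targets include its own brakes, such as phosphodiesterases that degrade cAMP, RGS proteins that limit G protein signalling and salt-inducible kinases that restrain the CREB coactivators.

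The 8 libraries held 32471299 to 41682806 counts each. Combination replicate 2 stood apart from its group. On the first principal component of the 8 libraries, with 21.9% of the variance, it lay at 65.5, the other 3 combination libraries between −8.36 and 14.6, and the fatty acid libraries between −29.0 and −9.50. Its 23 measured hepatocyte markers had a mean log2 level of −1.84 relative to the fatty acid libraries, against −0.17 to −0.06 in the other 3, and their summed level was 32838 CPM (counts scaled to 1e6 per library) against 73426 to 81645 CPM. On the same scale it lay at 0.92 for the proliferation genes, where the other 3 had 0.36 to 0.47. For markers of stellate cells and fibroblasts it lay at 0.11, where they had −0.28 to −0.09. The cAMP targets did not set it apart, at 0.61 against 0.61 to 0.68. Counts of many lists and values of many genes are therefore also given without this library. Where a result is given only with all libraries, this does not mean that it is the same without replicate 2. The part of these differences in the results was not tested. Of the markers that define the labelled cell types, ALB was among the most abundant, at 11130 to 31507 CPM of all counts, and KRT19 stood at 115 to 180, while KRT7 lay below 0.864 and EPCAM, TFF1 and TFF2 had 0 counts in all 8 libraries. COL1A2 and IGF2 were also listed at 0, and VIM, a cytoskeletal gene of many cultured cells, at no more than 0.740 CPM. Whether the counting lost such genes was not tested, so a 0 here is a listed count and not a statement about the cells. PTPRC, a marker of leukocytes, had 8 counts in all 8 libraries together, and CD3E, TYROBP and VSIG4 had 0. Of the 14 macrophage and leukocyte markers 4 had enough counts to be tested. CD14 stood at 13.6 to 24.7 CPM of all counts and ITGAM at 2.21 to 3.49, while CD163 and CSF1R stood at no more than 0.745 and 0.383. The endothelial markers CDH5, LYVE1 and CLEC4G had 0 counts, and KDR stood at 47.7 to 170 CPM.

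**Figure D1:**
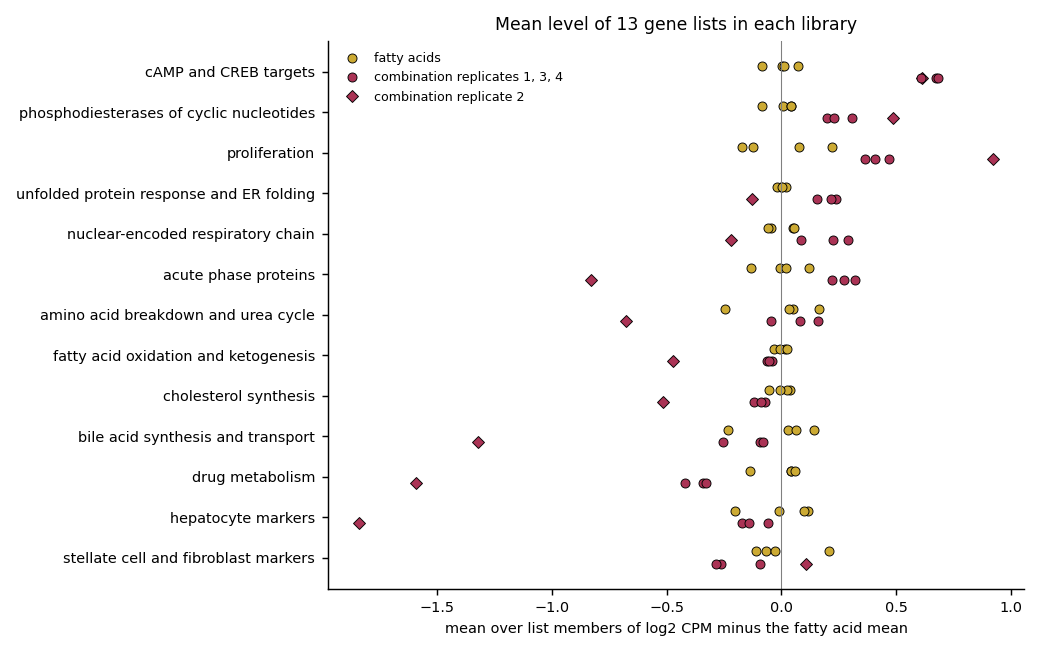
Mean level of 13 gene lists in each of the 8 libraries, as log2 CPM minus the mean of the fatty acid libraries, averaged over list members; yellow circles are fatty acid libraries, red circles combination replicates 1, 3 and 4, and the red diamond combination replicate 2. All 4 combination libraries lie together, between 0.61 and 0.68, for the cAMP targets, whereas replicate 2 lies at −1.84 for the hepatocyte markers and at −0.83 for the acute phase proteins, apart from the other 3.

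Adding formoterol to fatty acids raised targets of cAMP, lowered several cytochrome P450 genes of drug metabolism and raised genes of cell division. The largest rise of a protein-coding gene was that of CGA, from 1.12 ± 0.377 to 28.5 ± 3.54 CPM (SD, n = 4), and the largest fall that of CYP2A6, from 47.7 ± 9.70 to 15.5 ± 7.60 CPM, among genes that reached 2 CPM in the higher group and whose groups did not overlap. At an edgeR quasi-likelihood adjusted p under 0.05, 304 genes rose and 203 fell. These 507 genes are 2.8% of those tested, 1.68% up and 1.12% down. A change of at least 2-fold was found for 51 of the rises and 15 of the falls. In 470 of the 507 the libraries of the 2 groups did not overlap, which was so for 9.34% of all tested genes. The 507 were called on these same libraries, so this separation is no separate support for the calls. Without combination replicate 2, 330 genes rose and 260 fell, 3.19% of 18517 tested, 1.78% up and 1.4% down. The 406 genes called both ways had the same sign in both, and they are 80.1% of the 507 and 68.8% of the 590. Without fatty acid replicate 3, 302 genes were called, 189 up and 113 down, and without fatty acid replicates 1 or 2 the falls numbered 123 or 135. Of 13886 protein-coding genes tested 3.49% were called, against 0.431% of 1159 long intergenic non-coding genes and 0.446% of 1121 antisense genes.

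**Figure D2:**
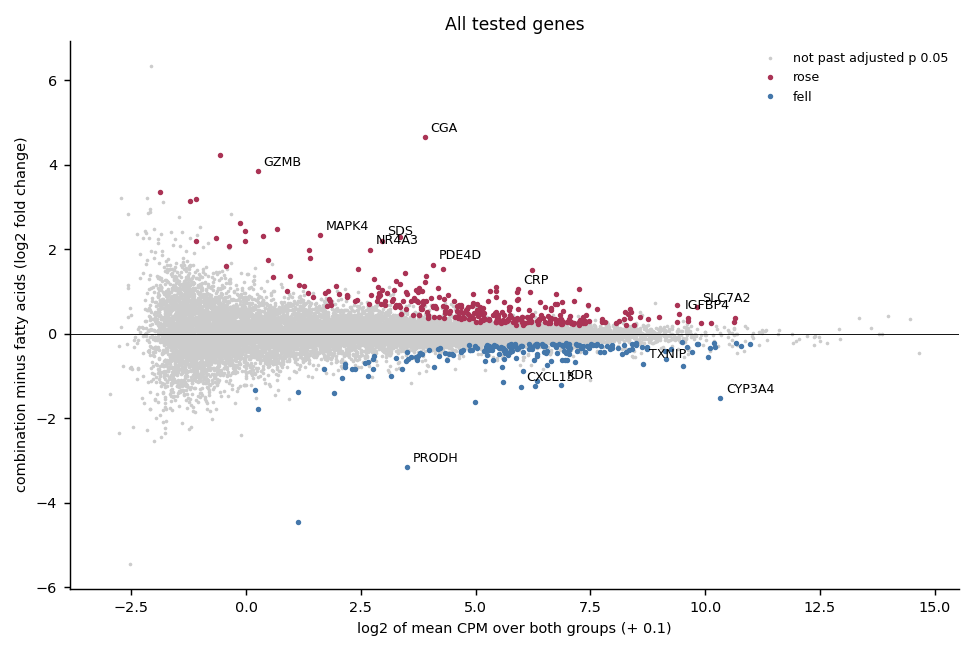
Log2 fold change of the combination against fatty acids (vertical) for all 18121 tested genes by their mean level (horizontal, log2 CPM); grey points did not pass an edgeR adjusted p of 0.05, red points rose (304) and blue points fell (203). CGA is the most displaced of the labelled rises, and PRODH lies below the other labelled falls although its fatty acid libraries are scattered from 2.86 to 43.4 CPM.

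Targets of cAMP and CREB rose in 9 of 27 measured members and fell in none, 33.3% beside 2.8% of all tested genes. The median log2 fold change was 0.27 beside 0.00 over all tested genes. The same counts, 9 and 0, were found without combination replicate 2, with a median of 0.32. CGA (ENSG00000135346, GRCh38 chromosome 6, 87085498 to 87095406), the common alpha subunit of the glycoprotein hormones and a well-known cAMP target, stood at 0.586, 1.20, 1.24 and 1.47 CPM in fatty acid replicates 1 to 4. In the combination it stood at 25.8, 33.7, 26.8 and 27.8 CPM. Every combination library lay far above every fatty acid library, and the change was 4.65 ± 0.21 on the log2 scale (SE; edgeR adjusted p = 9.69e-12). NR4A3 (chromosome 9, 99821855 to 99866891), an orphan nuclear receptor induced by cAMP within hours, stood at 3.08, 2.56, 1.84 and 2.88 CPM with fatty acids and at 8.73, 11.8, 9.76 and 10.9 CPM in the combination. The groups did not overlap, and the change was 1.99 ± 0.18 (edgeR adjusted p = 3.85e-07). Its relative NR4A1 stood at 2.40, 2.38, 2.75 and 3.46 CPM against 5.95, 6.11, 5.42 and 3.51 CPM. Here combination replicate 4 lay just above the highest fatty acid library, and the change was 0.93 ± 0.20 (edgeR adjusted p = 0.00943). NR4A2, the third member of the family, did not pass, at 0.43 (edgeR adjusted p = 0.233).

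AREG, the EGF receptor ligand amphiregulin, stood at 7.78 to 9.52 CPM with fatty acids and at 15.8 to 22.3 CPM in the combination, a change of 1.08 ± 0.13. DUSP1, a phosphatase that switches off MAP kinases, went from 359 to 395 CPM up to 462 to 502 CPM, a change of 0.36 ± 0.07. SIK1, a salt-inducible kinase, changed by 1.17 ± 0.15, but it has the near-identical copy SIK1B, which changed by 1.22 ± 0.13, so how reads divide between them is uncertain. The immediate early genes FOS (−0.51, edgeR adjusted p = 0.0515), FOSB, JUNB and EGR1 did not pass, nor did the cAMP-responsive repressor gene CREM (0.15, adjusted p = 0.603). PPARGC1A, the coactivator of mitochondrial and gluconeogenic genes, stood at 55.6 to 66.3 CPM with fatty acids and at 63.8 to 73.7 CPM in the combination. The groups overlapped, and its change of 0.20 ± 0.07 did not pass (edgeR adjusted p = 0.137). PCK1, the rate-limiting enzyme of gluconeogenesis, stood at 13.5 to 16.9 CPM against 20.0, 10.7, 21.5 and 20.8 CPM, with the lowest value in combination replicate 2. It did not pass with that library (0.21 ± 0.16, edgeR adjusted p = 0.628) or without it (0.40 ± 0.12, adjusted p = 0.0733).

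Some of the risen promoters hold the palindromic cAMP response element. RefSeq promoter windows (build GRCh38.p14, 250 bases before to 50 after a gene's start) were found by symbol for 228 of the 304 risen genes. The element TGACGTCA, which reads the same on both strands, was in 14 of their 359 windows (3.90%), in 4 of 247 windows of fallen genes (1.62%), in 421 of 16910 windows of all tested genes (2.49%) and in 649 of all 35116 windows (1.85%). The shorter motif TGACG on either strand, which the full element contains, was in 35.1%, 24.7%, 30.2% and 24.6% of the same windows. Both shares are descriptions of letters and not of binding. The windows of CGA and LDHA are shown because they are the named rises that hold the element, and those of AREG and DUSP1, which were chosen after their values were seen, because they are cAMP targets that rose. Each runs 5′ to 3′ on the gene's strand, with the element in capitals. That of CGA (chr6:87095057-87095356, minus strand) holds 2 elements whose first bases lie 142 and 124 bases before the start. Those of AREG (chr4:74444886-74445185, plus strand), DUSP1 (chr5:172771146-172771445, minus strand) and LDHA (chr11:18394313-18394612, plus strand) hold 1 each, 65, 125 and 51 bases before the start.
CGA: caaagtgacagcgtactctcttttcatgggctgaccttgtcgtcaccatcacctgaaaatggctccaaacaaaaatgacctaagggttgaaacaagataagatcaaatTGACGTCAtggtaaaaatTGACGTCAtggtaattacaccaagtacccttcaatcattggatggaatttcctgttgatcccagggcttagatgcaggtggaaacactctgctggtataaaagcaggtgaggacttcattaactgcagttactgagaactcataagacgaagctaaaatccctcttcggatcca
AREG: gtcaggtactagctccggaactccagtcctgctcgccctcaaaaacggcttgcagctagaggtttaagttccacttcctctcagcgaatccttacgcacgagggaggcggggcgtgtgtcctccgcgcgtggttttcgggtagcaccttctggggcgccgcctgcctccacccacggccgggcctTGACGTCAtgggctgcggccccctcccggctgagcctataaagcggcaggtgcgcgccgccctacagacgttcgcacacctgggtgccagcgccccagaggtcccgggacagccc
DUSP1: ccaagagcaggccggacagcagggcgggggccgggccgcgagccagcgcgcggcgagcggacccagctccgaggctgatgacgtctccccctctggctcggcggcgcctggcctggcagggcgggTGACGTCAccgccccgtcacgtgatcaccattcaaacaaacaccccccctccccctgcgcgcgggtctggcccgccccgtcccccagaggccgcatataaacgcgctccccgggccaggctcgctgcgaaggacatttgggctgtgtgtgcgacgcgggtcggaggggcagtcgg
LDHA: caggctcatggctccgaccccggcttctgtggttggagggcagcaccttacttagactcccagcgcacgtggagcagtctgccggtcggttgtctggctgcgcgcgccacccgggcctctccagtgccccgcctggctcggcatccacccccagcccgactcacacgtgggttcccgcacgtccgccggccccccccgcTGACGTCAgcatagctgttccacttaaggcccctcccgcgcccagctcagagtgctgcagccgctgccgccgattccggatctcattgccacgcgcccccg

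The core of the pathway changed in both directions, and some of its brakes rose. Of 16 measured adrenoceptor, G protein and desensitisation genes 1 rose and 1 fell, 12.5% beside 2.8% of all tested genes, with a median of 0.01. The rise was RGS2, a regulator that shortens G protein signals and is itself a cAMP target, which stood at 4.31, 7.31, 5.77 and 6.07 CPM against 15.8, 17.9, 14.7 and 15.0 CPM. Its groups did not overlap, and the change was 1.44 ± 0.16 (edgeR adjusted p = 8.19e-06). The fall was GNAI1, an inhibitory G protein subunit, at −0.29 ± 0.06. Of 30 genes of adenylyl cyclases, protein kinase A, the cAMP sensor EPAC and CREB factors 2 rose and 1 fell (10.0%), with a median of −0.04. AKAP12, an anchor of protein kinase A, went from 42.7 to 47.1 CPM up to 58.4 to 66.6 CPM (0.44 ± 0.07), and the kinase SIK2 changed by 0.35 ± 0.06. PRKAR2B, a regulatory subunit of protein kinase A, changed by −0.38 ± 0.07. CREB1, CRTC2 and the catalytic subunit gene PRKACA lay between −0.08 and 0.04 and did not pass.

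Cyclic nucleotide phosphodiesterases rose in 3 of 16 measured members and fell in none, 18.75% beside 2.8% of all tested genes, with a median of 0.15. PDE4D (chromosome 5, 58969038 to 60522120), a cAMP-specific phosphodiesterase, stood at 6.56, 8.70, 8.02 and 9.30 CPM with fatty acids and at 26.9, 27.2, 22.1 and 24.7 CPM in the combination. Every combination library lay above every fatty acid library, and the change was 1.63 ± 0.13 (edgeR adjusted p = 6.51e-08). PDE3A went from 6.33 to 7.76 CPM up to 13.7 to 16.6 CPM (1.00 ± 0.12), and PDE3B, the form that insulin activates, from 50.9 to 55.0 CPM up to 62.2 to 74.7 CPM (0.37 ± 0.07). PDE4B (0.27) and PDE10A (0.33) did not pass.

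**Figure D3:**
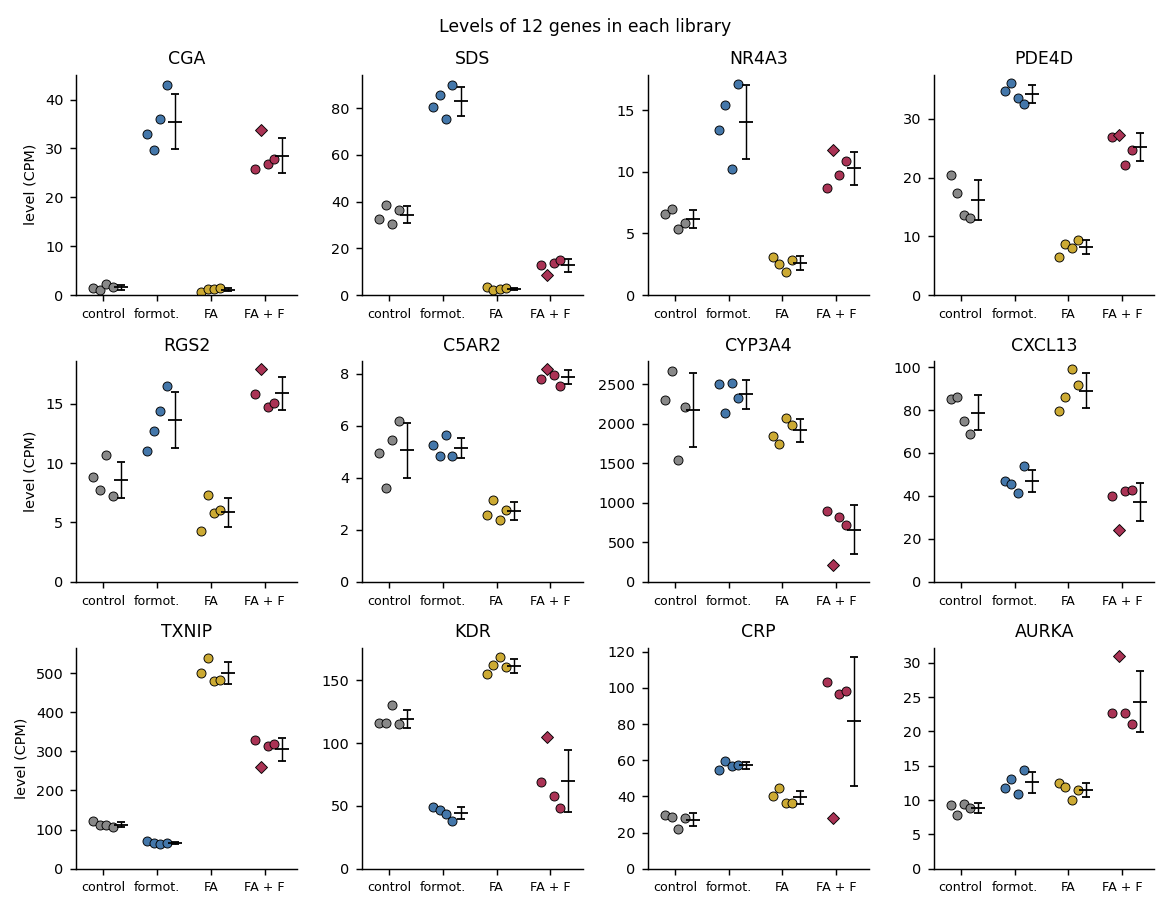
Level (CPM) of 12 genes in each library of the 4 groups (control, formoterol, FA for fatty acids, FA + F for the combination), with the mean and SD of each group beside the points; the diamond is combination replicate 2. CGA, NR4A3, PDE4D and RGS2 are higher in all 4 combination libraries than in all 4 fatty acid libraries, CYP3A4, CXCL13, TXNIP and KDR are lower in all 4, and for CRP replicate 2 lies below the fatty acid libraries.

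Some enzymes and carriers of amino acids rose. Of 35 measured genes of amino acid breakdown and the urea cycle 4 rose and 1 fell, 14.3% beside 2.8% of all tested genes. The median was −0.07, with a fold change above 0 in 10. Without combination replicate 2 the calls numbered the same, but the median was 0.04, with a fold change above 0 in 19. SDS (chromosome 12, 113392445 to 113426301), which turns serine into pyruvate, stood at 3.25, 2.20, 2.75 and 2.81 CPM with fatty acids. In the combination it stood at 13.0, 8.59, 13.9 and 15.1 CPM, lowest in replicate 2. The groups did not overlap, and the change was 2.20 ± 0.15 (edgeR adjusted p = 6.69e-09); its neighbour SDSL overlaps it, with 0.565 times as many counts. KYNU, kynureninase of tryptophan breakdown, went from 36.3 to 43.0 CPM up to 76.5 to 81.5 CPM (0.98 ± 0.07). CPS1, the first enzyme of the urea cycle, went from 38.9 to 47.5 CPM up to 72.1 to 77.9 CPM (0.79 ± 0.07), and HGD, an enzyme of tyrosine breakdown, changed by 0.29 ± 0.07. The fall was PRODH, proline dehydrogenase, but its fatty acid libraries were scattered at 27.3, 2.86, 8.05 and 43.4 CPM, against 2.25, 3.15, 2.08 and 1.67 CPM. Fatty acid replicate 2 lay below combination replicate 2, so the groups overlapped. Among 16 amino acid transporters 2 rose, 12.5%, and 1 without combination replicate 2, 6.25%. SLC7A2, a carrier of arginine and other cationic amino acids, stood at 722, 666, 789 and 646 CPM against 1100, 1040, 1175 and 1053 CPM, without overlap, a change of 0.63 ± 0.07 (edgeR adjusted p = 9.82e-06). SLC7A8 changed by 0.36 ± 0.09 and did not pass without combination replicate 2 (adjusted p = 0.114).

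Of 18 gluconeogenesis genes 2 rose and none fell, 11.1% beside 2.8% of all tested genes (16.7% beside 3.19% without combination replicate 2). Of 23 glycolysis genes 1 rose and 1 fell, 8.70%, or 4 and 1 without replicate 2, 21.7%. The medians of these lists were 0.08 and 0.05. GAPDH (0.29), GPI (0.25), ENO1 (0.20) and PKLR (−0.62), enzymes of glycolysis, passed only without replicate 2, and the regulator PFKFB3 (−0.32) only with it. Of 22 glycogen genes none passed edgeR's test. Of the glycogen genes 2 were up and 4 down at an unadjusted p under 0.05, and DESeq2 and limma voom with quality weights each called 2 down. LDHA, which interconverts pyruvate and lactate, stood at 1475, 1483, 1398 and 1413 CPM against 1755, 1556, 1824 and 1855 CPM, a change of 0.28 ± 0.06 (edgeR adjusted p = 0.0138). The transaminase gene GOT1 changed by 0.28 ± 0.07. G6PC, which releases glucose from hepatocytes, did not pass, at −0.54 (edgeR adjusted p = 0.31). CREB3L3, a liver transcription factor activated at the endoplasmic reticulum, stood at 161 to 186 CPM with fatty acids and at 228, 134, 247 and 251 CPM in the combination. It passed only without replicate 2, at 0.49 (edgeR adjusted p = 1.17e-05), against 0.32 with it (adjusted p = 0.212).

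Genes of lipid metabolism went in both directions, and the share called differed between the lists. Over all tested genes it was 2.8%, or 3.19% without combination replicate 2, and the lists with 1 call lay little above it. Fatty acid oxidation and ketogenesis had 0 of 29 up and 1 down (3.45%), with a further fall, the ketone body enzyme BDH1 (−0.55, edgeR adjusted p = 0.0438), without replicate 2. The fall with all libraries was ACADL, long-chain acyl-CoA dehydrogenase, from 166, 177, 177 and 177 CPM to 152, 133, 134 and 133 CPM (−0.34 ± 0.05, edgeR adjusted p = 0.000873), while CPT1A, which starts fatty acid entry into mitochondria, lay at 0.09 and did not pass. Of 26 target genes of the PPAR receptors, which bind fatty acids, 1 rose and 2 fell, 11.5% (2 and 1 without replicate 2). TXNIP, an inhibitor of glucose uptake that this list holds, stood at 500, 540, 480 and 482 CPM with fatty acids and at 328, 261, 313 and 319 CPM in the combination. The groups did not overlap, and the change was −0.71 ± 0.07 (edgeR adjusted p = 1.28e-06). Lipid droplet proteins went both ways, 2 up and 2 down of 19, 21.1% (2 and 0 without replicate 2). PLIN3, a perilipin that coats small droplets, went from 18.4 to 21.9 CPM up to 26.2 to 31.1 CPM (0.42 ± 0.09), and PLIN4 changed by 0.24 ± 0.06. PLIN1, the perilipin that gates lipolysis in fat cells, changed by −0.35 ± 0.09 and did not pass without replicate 2 (adjusted p = 0.101). GPAM, the first enzyme of glycerolipid synthesis, was the only call, a fall, among 23 triglyceride and lipoprotein genes (−0.31 ± 0.06), 4.35%. ACACB, the acetyl-CoA carboxylase of mitochondria, was the only call, a fall, among 18 fatty acid synthesis genes (−0.25 ± 0.07), 5.56%. The call of ACACB was lost without replicate 2 (adjusted p = 0.0506).

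Cholesterol synthesis genes fell in 3 of 25 and rose in none, 12.0% beside 2.8% of all tested genes, with a median of −0.21. Without combination replicate 2 it was 1 fall, 4.0% beside 3.19%, with a median of −0.12. Of 22 bile acid genes 1 fell and none rose, 4.55%, with a median of −0.24. Without replicate 2 it was 2 falls, 9.09%, with a median of −0.05. BAAT, which joins bile acids to amino acids, stood at 142, 153, 177 and 148 CPM against 108, 70.4, 113 and 108 CPM, without overlap. Its change was −0.63 ± 0.12 (edgeR adjusted p = 0.00367), and −0.50 ± 0.09 without replicate 2. CYP7A1, the rate-limiting enzyme of bile acid synthesis, stood at 15.8, 13.7, 18.4 and 18.3 CPM against 7.44, 2.19, 9.63 and 10.0 CPM. Its groups did not overlap, and it passed without replicate 2 (−0.87 ± 0.23, edgeR adjusted p = 0.0291) but just missed the threshold with it (−1.17 ± 0.32, adjusted p = 0.0501).

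No mitochondrially encoded gene of 13 and no nuclear-encoded respiratory chain gene of 58 passed edgeR's test. At an unadjusted p under 0.05 it was 1 up of the former, and 4 up and 2 down of the latter. DESeq2 called 0 of the former and 1 down of the latter, and limma voom with quality weights 1 up of the former, and 2 up and 1 down of the latter. Of the nuclear-encoded genes 50 had a fold change above 0, with a median of 0.13. Without combination replicate 2 the median was 0.23 and 2 genes rose, COX6B1 (0.67) and ATP5MC3 (0.35), and 1 mitochondrially encoded gene, MT-ATP8 (0.59). These are 3.45% of the nuclear-encoded and 7.69% of the mitochondrially encoded genes, beside 3.19% of all tested genes. Among 25 genes of mitochondrial biogenesis 1 rose, 4.0%, which is near the 2.8% of all tested genes. It was the nuclear receptor ESRRA, from 44.0, 40.0, 42.4 and 45.0 CPM to 55.1, 43.8, 57.1 and 57.1 CPM (0.31 ± 0.08, edgeR adjusted p = 0.0337). Its combination replicate 2 lay within the fatty acid range, and ESRRA overlaps TRMT112, whose counts were 0.404 times its own.

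Cytochrome P450 genes of drug metabolism made up 4 of the 10 largest falls among called protein-coding genes that reached 2 CPM and whose groups did not overlap. Of 29 measured genes 6 fell and 1 rose, 24.1% beside 2.8% of all tested genes, with a median of −0.43. The counts were the same without combination replicate 2, beside 3.19% of all tested genes, with a median of −0.23. CYP3A4 (chromosome 7, 99756960 to 99784265), the main drug-oxidising enzyme of adult liver, stood at 1852, 1750, 2081 and 1987 CPM with fatty acids. In the combination it stood at 896, 217, 816 and 723 CPM, lowest in replicate 2. The groups did not overlap, and the change was −1.53 ± 0.26 (edgeR adjusted p = 0.00112), or −1.24 ± 0.11 without that library (adjusted p = 4.26e-08). CYP2A6, which oxidises nicotine, stood at 51.1, 33.6, 55.8 and 50.4 CPM against 22.1, 4.88, 19.6 and 15.5 CPM, a change of −1.62 ± 0.28 (−1.32 ± 0.18 without replicate 2). CYP2B6 stood at 85.9 to 131 CPM against 64.9, 9.58, 57.7 and 53.2 CPM (−1.24 ± 0.32, and −0.90 ± 0.14 without replicate 2). CYP2C8 stood at 62.5 to 73.0 CPM against 39.7, 9.45, 38.1 and 33.3 CPM (−1.15 ± 0.26, and −0.86 ± 0.13 without replicate 2). In all 4 genes the other 3 combination libraries also lay below every fatty acid library, which the condition of no overlap required. CYP3A5 passed only with replicate 2, at −0.42 ± 0.11. UGT1A1, which conjugates bilirubin and shares exons with its neighbours, changed by −0.64 ± 0.17. These P450 genes have close copies, among which the counting could have divided reads. The rise was POR, the reductase that passes electrons to all microsomal P450 enzymes, from 314 to 355 CPM up to 470, 361, 454 and 440 CPM (0.39 ± 0.08).

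Most other hepatocyte genes did not pass. Of 23 hepatocyte markers only CYP3A4 passed, 4.35% beside 2.8% of all tested genes, with a median of −0.36. Without combination replicate 2 it was 3 up and 2 down, 21.7% beside 3.19%, with a median of −0.07. ALB lay at −0.47 (edgeR adjusted p = 0.261), HNF4A at 0.01, and none of 22 hepatocyte transcription factors passed edgeR's test, DESeq2 or limma voom, with 2 down at an unadjusted p under 0.05. F9, coagulation factor IX, stood at 6.44, 4.87, 5.36 and 5.74 CPM against 2.42, 1.31, 3.73 and 3.42 CPM. The groups did not overlap, but its call (−1.04 ± 0.27, edgeR adjusted p = 0.0410) was lost without replicate 2 (−0.81 ± 0.24, adjusted p = 0.0676).

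For the acute phase proteins, which the liver secretes in inflammation, the calls changed with combination replicate 2. With all libraries 1 of 22 rose, 4.55% beside 2.8% of all tested genes, with a median of 0.12. Without replicate 2 it was 9 up and none down, 40.9% beside 3.19%, with a median of 0.36. CRP stood at 40.4, 44.4, 36.5 and 36.4 CPM with fatty acids and at 103, 28.1, 96.7 and 98.1 CPM in the combination. Replicate 2 lay below the fatty acid libraries and the other 3 far above them, and the change was 1.05 ± 0.23 with it (edgeR adjusted p = 0.0141) and 1.33 ± 0.09 without (adjusted p = 6.00e-11). The fibrinogen chain FGB stood at 8985 to 9446 CPM against 12308, 6765, 13687 and 14251 CPM. FGA, FGB and FGG changed by 0.53, 0.55 and 0.58 without replicate 2 (edgeR adjusted p = 8.12e-08, 1.49e-06 and 1.02e-07) and did not pass with it (0.36, 0.36 and 0.41). The unfolded protein response, in which the endoplasmic reticulum raises its folding capacity, had 1 of 24 up with all libraries, 4.17%. Without replicate 2 it was 9 up, 37.5%. CRELD2, a folding factor of the endoplasmic reticulum, rose either way, from 35.3 to 44.4 CPM up to 45.7 to 53.3 CPM (0.38 ± 0.08); it overlaps ALG12, with 0.274 times its counts. The chaperone HSPA5 (0.17), XBP1 (0.29) and HYOU1 (0.31) passed only without replicate 2. Of 20 genes of the integrated stress response 2 rose, 10.0%. They were CHAC1, which breaks down glutathione, from 4.63 to 7.07 CPM up to 12.5 to 15.6 CPM (1.25 ± 0.15), and DDIT4, an inhibitor of mTOR signalling, at 0.40 ± 0.08. SHMT2, a mitochondrial enzyme of serine metabolism, passed only without replicate 2 (0.22, edgeR adjusted p = 0.0490).

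Many of the measured genes of cell division rose, and fewer were called without combination replicate 2. Of 22 proliferation genes 15 rose and none fell, 68.2% beside 2.8% of all tested genes, with a median of 0.66. Without replicate 2 it was 10, 45.5% beside 3.19%, with a median of 0.48. UBE2C, a ubiquitin carrier of mitosis, went the other way at a low level, from 0.607 to 0.977 CPM down to 0.172 to 0.557 CPM without overlap, and did not pass (−1.16, edgeR adjusted p = 0.233). AURKA, a mitotic kinase, stood at 12.5, 12.0, 10.1 and 11.4 CPM with fatty acids and at 22.7, 31.0, 22.6 and 21.1 CPM in the combination, highest in replicate 2. The groups did not overlap, and the change was 1.08 ± 0.12 (edgeR adjusted p = 1.20e-05), or 0.95 ± 0.12 without that library. TOP2A, the topoisomerase of dividing cells, stood at 107, 127, 95.8 and 86.6 CPM against 158, 257, 158 and 143 CPM (0.78 ± 0.14, and 0.55 without replicate 2). MKI67 stood at 45.3, 51.6, 43.4 and 35.8 CPM against 61.5, 115, 69.5 and 63.0 CPM (0.81 ± 0.18, and 0.56 without replicate 2). In all 3 genes the lowest combination library lay above the highest fatty acid library. BUB1, PLK1, MCM2, MCM3 and CCNE2 lost their calls without replicate 2.

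Receptors and signalling genes were among the other large rises. MAPK4, an atypical MAP kinase, stood at 1.08, 0.511, 1.66 and 0.683 CPM against 4.44, 6.19, 4.80 and 4.26 CPM (2.33 ± 0.24, edgeR adjusted p = 3.14e-06). CCR7, a chemokine receptor best known in lymphocytes, stood at 0.849, 0.542, 1.54 and 1.09 CPM against 4.67, 5.10, 3.04 and 3.03 CPM (1.97 ± 0.30). C5AR2, a receptor for complement C5a, stood at 2.37 to 3.16 CPM against 7.54 to 8.19 CPM (1.53 ± 0.16), with little spread in either group. RASD1, a small GTPase induced by glucocorticoids, went from 9.31, 9.15, 8.23 and 13.2 CPM to 28.7, 28.8, 29.1 and 29.8 CPM (1.54 ± 0.16, edgeR adjusted p = 3.81e-06). All 4 genes had groups that did not overlap, which the rule for naming the largest rises required. GZMB, a protease of cytotoxic lymphocytes, was low, at 0 to 0.202 CPM with fatty acids and 0.788, 4.56, 1.50 and 1.42 CPM in the combination (3.84 ± 0.68, and 3.10 ± 0.65 without replicate 2). It reached 2 CPM in the mean only through replicate 2 and overlaps an unnamed gene with 0.593 times its counts. MT1A, a metallothionein that binds zinc, stood at 0.770 to 1.29 CPM against 3.53, 1.33, 5.03 and 5.76 CPM (1.80 ± 0.38); its family has near-identical copies. MT1F, of the same family, passed only without replicate 2 (1.22 ± 0.21, edgeR adjusted p = 0.000525), as did SPINK1, a trypsin inhibitor (1.21 ± 0.27), GAS1 (0.99 ± 0.26) and COPS9 (0.97 ± 0.24).

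Falls outside drug metabolism included chemokines and surface proteins. CXCL13, a chemokine that attracts B cells, stood at 79.3, 86.3, 98.9 and 91.6 CPM against 39.8, 24.0, 42.2 and 42.8 CPM (−1.26 ± 0.13, edgeR adjusted p = 3.81e-06). CCL16, a chemokine made by liver, stood at 4.90 to 5.96 CPM against 2.39, 0.640, 2.79 and 2.14 CPM (−1.41 ± 0.28). KDR, the main VEGF receptor, stood at 155, 162, 169 and 161 CPM against 69.5, 105, 58.1 and 48.3 CPM (−1.20 ± 0.15, and −1.46 ± 0.10 without replicate 2). KDR is also an endothelial marker. Of the other 10 endothelial markers PECAM1 and ENG were measured, at 1.85 to 4.56 and 1.97 to 5.21 CPM of all counts, and 8 had too few counts to be tested, among them CDH5, LYVE1 and CLEC4G with 0. Their groups overlapped and neither passed (PECAM1 −0.08, ENG 0.08). KDR makes up most of the list's summed level, which was 160 to 173 CPM with fatty acids and 55.2 to 111 CPM in the combination. IGSF10, at 2.31 to 3.94 CPM, changed by −1.38 ± 0.36 and overlaps MED12L. DGCR6, at 10.1, 5.72, 7.90 and 9.10 CPM against 4.61, 2.83, 4.41 and 4.65 CPM, changed by −1.0 ± 0.16. It overlaps PRODH, whose counts were 0.885 times its own. CEMIP (−1.09 ± 0.28, overlapping MESD with 34.2 times its counts) and MLIP (−0.79 ± 0.21) passed only without replicate 2. Of 20 chemokine and NF-kB genes CXCL2 rose (0.52 ± 0.13) and CX3CL1, the membrane-bound chemokine fractalkine, fell, from 23.8 to 26.8 CPM down to 13.4 to 18.6 CPM (−0.62 ± 0.11). These calls are 10.0% of the list, beside 2.8% of all tested genes. CXCL8, a chemokine for neutrophils, passed only without replicate 2 (−0.54, edgeR adjusted p = 0.0077, against −0.36 with it).

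**Figure D4:**
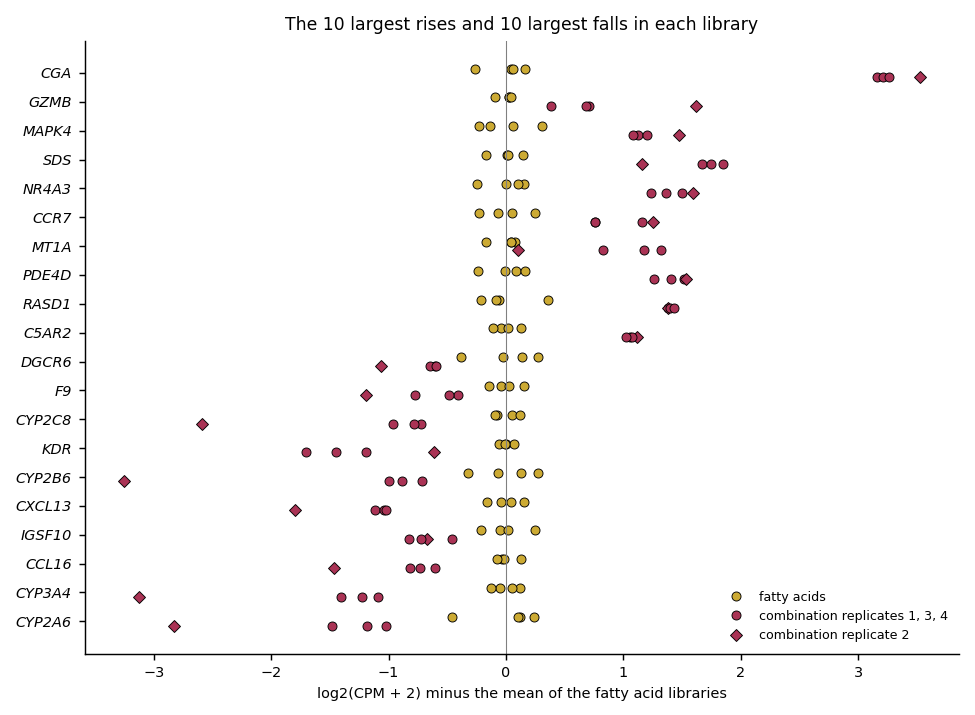
Protein-coding genes with the 10 largest rises and the 10 largest falls, as log2(CPM + 2) in each library minus the mean of the 4 fatty acid libraries; yellow circles are fatty acid libraries, red circles combination replicates 1, 3 and 4, and diamonds combination replicate 2. The diamond is the lowest combination value for the 4 cytochrome P450 genes and the highest for KDR, while RASD1 and C5AR2 show 4 combination libraries close together.

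Smaller groups changed in part. NRF2 targets of oxidative stress had 3 of 20 down and none up, 15.0% beside 2.8% of all tested genes. The 3 were AKR1B10, an aldo-keto reductase, from 317 to 357 CPM down to 205 to 264 CPM (−0.48 ± 0.08), AKR1C1 and TXNRD1. Of 11 cholangiocyte markers 2 fell, 18.2%, with a median of −0.02 and a fold change above 0 in 5. KRT19, a keratin of bile duct cells, stood at 179, 171, 152 and 171 CPM against 125, 140, 121 and 117 CPM (−0.42 ± 0.08), and SOX9, a duct transcription factor, changed by −0.40 ± 0.08. MUC1 (0.53, adjusted p = 0.213) and KRT7 (1.46, adjusted p = 0.149) were higher without overlap but did not pass edgeR's test, and CD24 passed without replicate 2 (0.27, adjusted p = 0.0319) but not with it (0.09). Of 15 stellate cell and fibroblast markers 1 fell, 6.67%. It was DCN, the matrix protein decorin, from 598 to 699 CPM down to 453 to 546 CPM (−0.40 ± 0.08). The 4 measured progenitor and 4 macrophage markers had no edgeR calls; at an unadjusted p under 0.05 it was 1 up and 0, and DESeq2 and limma voom each called 1 progenitor marker up and 0 macrophage markers. Glucocorticoid and FOXO targets had 2 of 24 up, DUSP1 and the kinase SGK1, and 4 down, 25.0% in all. Of the 4, CITED2, a modulator of the coactivator p300, went from 299 to 315 CPM down to 229 to 257 CPM (−0.34 ± 0.05), and the others were TSC22D3, FOXO3 and SESN1. The metallothionein MT2A passed only without replicate 2 (0.97, edgeR adjusted p = 0.0189). Among 19 clock genes NFIL3 and BHLHE40 rose while RORA (−0.46 ± 0.11) and HLF (−0.37 ± 0.09) fell, 21.1% of the list. In the growth factor list of 21 genes IGFBP4 (0.46 ± 0.07) and SOCS2, which dampens growth hormone signals (0.77 ± 0.12), rose, and the growth hormone receptor gene GHR (−0.46 ± 0.07) fell. These calls are 14.3% of the list.

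Few non-coding genes changed. LINC01411 stood at 0.586, 0.662, 0.178 and 0.404 CPM against 1.90, 3.02, 2.65 and 2.62 CPM (2.47 ± 0.37, edgeR adjusted p = 0.00037). SSTR5-AS1 (−0.83 ± 0.19) and AC022916.1 (−0.71 ± 0.18) fell. C1QTNF1-AS1 rose (1.12 ± 0.17), but it overlaps C1QTNF1, which had 169 times its counts and itself changed by 0.69 ± 0.06. The use of strand in the counting was not given in the sources used here, so reads of an antisense gene and its partner cannot be told apart.

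Whether fatty acids altered the response to formoterol was asked with the interaction, the formoterol effect with fatty acids minus the effect without. It passed an edgeR adjusted p of 0.05 for 997 genes (5.5%), 384 positive (2.12%) and 613 negative (3.38%). Without combination replicate 2 it was 5.54%, 1.94% positive and 3.6% negative. With scaling by total counts only, which moves the median of all genes from 0.01 to 0.17, 1030 were positive (5.68%) and 351 negative (1.94%), 7.62% in all. The number also rested on single libraries: without control replicate 3 it was 444, without formoterol replicate 4 it was 585, without fatty acid replicate 1 it was 604, without control replicate 4 it was 640 and without fatty acid replicate 3 it was 653. Without formoterol replicate 3 the negative ones numbered 404. Of the 507 genes that changed when formoterol was added to fatty acids 199 also changed with formoterol against control. These are 39.3% of the 507 and 10.6% of the 1872 genes changed by formoterol without fatty acids (10.3% of those tested, 5.76% up and 4.57% down). Among the 304 rises 91 rose and 14 fell without fatty acids, and among the 203 falls 79 fell and 15 rose. The 2 contrasts share no library, although the spread was estimated from all 16. Fatty acids against control had called 140 of the 304 rises down and 56 up, beside 7.62% and 8.93% of all tested genes. Of the 203 falls it had called 104 up and 22 down. That contrast shares the fatty acid libraries with opposite sign, so spread in them favours opposite calls.

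Several cAMP targets responded both with and without fatty acids, and the size differed for some. CGA changed by 4.65 ± 0.21 with and 4.50 ± 0.20 without, an interaction of 0.15 ± 0.29 (edgeR adjusted p = 0.834; the SE allows a difference of either sign). For SDS the changes were 2.20 ± 0.15 and 1.27 ± 0.12, and the interaction of 0.93 ± 0.20 passed (adjusted p = 0.00873). RGS2 (0.77 ± 0.22, adjusted p = 0.0445) and RASD1 (0.85 ± 0.22, adjusted p = 0.0302) passed as well. NR4A3 (0.80 ± 0.24, adjusted p = 0.0538) and PDE4D (0.55 ± 0.18, adjusted p = 0.0748) did not. Of the 27 cAMP targets 5 had a positive and 2 a negative interaction, 25.9% beside 5.5% of all tested genes. It was 4 and 2 without combination replicate 2, and 8 and 2 with total counts only. Fatty acids against control, which shares the fatty acid libraries and changed 16.5% of tested genes (8.93% up, 7.62% down), lowered SDS from 34.4 ± 3.72 to 2.75 ± 0.432 CPM, NR4A3 from 6.19 ± 0.741 to 2.59 ± 0.545 CPM and PDE4D from 16.2 ± 3.43 to 8.15 ± 1.18 CPM (edgeR adjusted p = 3.28e-13, 3.60e-05 and 1.40e-05). In the combination SDS, at 12.7 ± 2.83 CPM, lay below the control mean, and NR4A3, at 10.3 ± 1.33 CPM, and PDE4D, at 25.3 ± 2.37 CPM, above it.

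For other genes formoterol had an effect with fatty acids that differed from a smaller or opposite one without. C5AR2 changed by 1.53 ± 0.16 with and 0.02 ± 0.16 without, an interaction of 1.51 ± 0.22 (edgeR adjusted p = 0.000848). CCR7 changed by 1.97 ± 0.30 with and 0.01 ± 0.28 without, an interaction of 1.96 ± 0.41 (adjusted p = 0.00867), and LINC01411 by 2.47 ± 0.37 and 0.15 ± 0.33 (adjusted p = 0.0096). SLC7A2 changed by 0.63 ± 0.07 and 0.06 ± 0.07 (interaction 0.57 ± 0.10, adjusted p = 0.00266). Fatty acids against control had lowered SLC7A2 from 1055 ± 68.8 to 706 ± 64.1 CPM (edgeR adjusted p = 5.62e-06). Its combination mean, 1092 ± 61.0 CPM, lay near that of the control. MAPK4 rose in both, by 2.33 ± 0.24 and 0.76 ± 0.20 (interaction 1.56 ± 0.31, adjusted p = 0.00623). CYP3A4 changed by −1.53 ± 0.26 with and 0.12 ± 0.25 without (interaction −1.65 ± 0.36, adjusted p = 0.0102). CYP2A6, CYP2B6 and CYP2C8 had interactions of −1.51 ± 0.39, −1.80 ± 0.45 and −1.70 ± 0.37, all past the threshold. Their changes without fatty acids did not pass, and lay at 0.56 for CYP2B6 and 0.54 for CYP2C8, opposite in sign to those with fatty acids. Their formoterol groups without fatty acids stood at 50.0 ± 5.85, 138 ± 18.2 and 50.1 ± 5.07 CPM and their controls at 54.1 ± 15.3, 93.6 ± 20.3 and 34.3 ± 8.80 CPM.

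BAAT, CX3CL1 and CCL16 passed in both contrasts with opposite signs. BAAT changed by 0.63 ± 0.12 without and −0.63 ± 0.12 with fatty acids (interaction −1.26 ± 0.17, edgeR adjusted p = 0.000467). CX3CL1 changed by 0.61 ± 0.11 and −0.62 ± 0.11 (interaction −1.23 ± 0.15, adjusted p = 0.000216), and CCL16 by 0.95 ± 0.27 and −1.41 ± 0.28 (interaction −2.36 ± 0.39, adjusted p = 0.00189). CYP7A1, ENPP6, APOA2, ZDHHC11 and CRACR2B passed without fatty acids but not with them, except that CYP7A1 passed there without combination replicate 2. CYP7A1 rose by 1.46 ± 0.32 without fatty acids and stood at −1.17 ± 0.32 with them (interaction −2.63 ± 0.45, adjusted p = 0.0023). ENPP6 rose by 1.60 ± 0.22 without and stood at −0.66 ± 0.21 with them, where it did not pass (interaction −2.27 ± 0.31). APOA2 rose by 2.15 ± 0.39 without and lay at −0.27 ± 0.37 with fatty acids, or 0.07 ± 0.27 without replicate 2, not passing either way (interaction −2.42 ± 0.54). In the other direction ZDHHC11, which overlaps BRD9 with 7.88 times its counts, fell by 1.62 on the log2 scale without fatty acids and lay at 0.25 ± 0.28 with them (interaction 1.86 ± 0.39). CRACR2B (2.04 ± 0.60) and SLC16A8 (1.83 ± 0.50) had positive interactions while neither passed in the combination against fatty acids. The interaction of CRACR2B lost its call in 15 of the alternative fits and that of SLC16A8 in 12. TXNIP (0.05 ± 0.10) and KDR (0.23 ± 0.21) had no interaction past the threshold, and both fell with formoterol either way. CRP changed by 1.07 ± 0.24 without and 1.05 ± 0.23 with fatty acids.

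**Figure D5:**
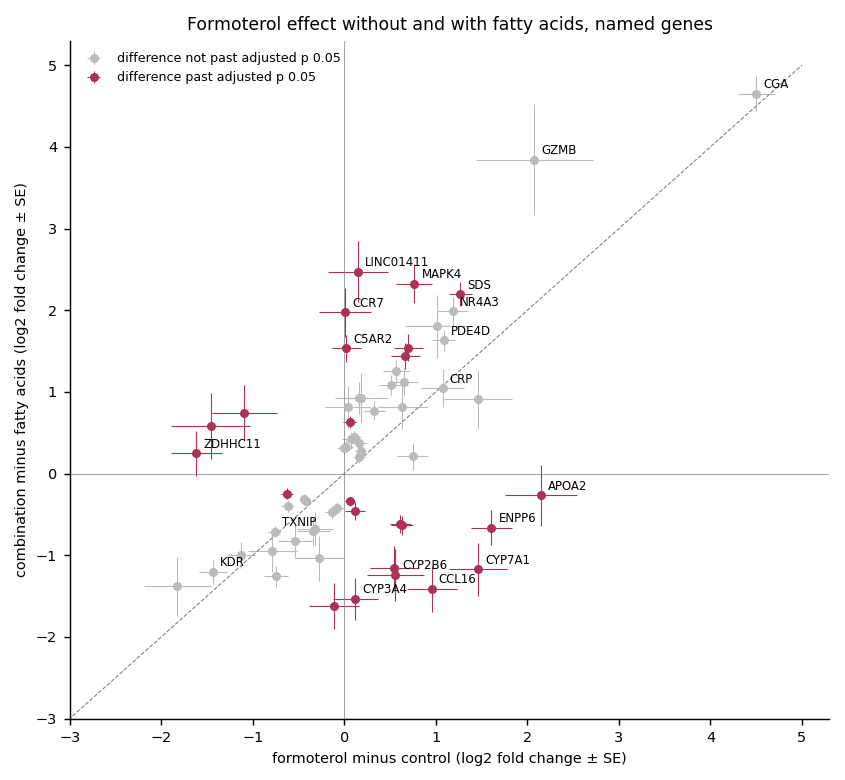
Log2 fold change with SE of 62 genes named by rule for formoterol against control (horizontal) and for the combination against fatty acids (vertical); red points have an interaction past an edgeR adjusted p of 0.05, grey points do not, and the dashed line marks equal effects. CGA lies near the line at 4.50 and 4.65, C5AR2 and CCR7 lie near 0 on the horizontal axis, and CYP7A1, ENPP6 and CCL16 lie to the right of 0 and below it.

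By list, hepatocyte markers had 16 negative interactions and no positive one of 23, with a median of −1.39, and 20 without combination replicate 2, with a median of −1.14. Formoterol against control had raised 15 of them, 65.2% beside 5.76% of all tested genes. Over all tested genes the interaction was called negative in 3.38% and positive in 2.12%, or 3.6% and 1.94% without replicate 2. Drug metabolism genes had 15 negative of 29 (19, with 1 positive, without replicate 2). Cholesterol synthesis had 12 of 25 (11 without replicate 2, 7 with total counts only). Amino acid breakdown had 11 of 35, with 1 positive (13 and 1 without replicate 2). Fatty acid oxidation had 10 of 29 with or without replicate 2 (6 with total counts only), and bile acid genes 8 of 22 (10 without replicate 2). Proliferation genes had no edgeR interaction past the threshold. There were 5 positive at an unadjusted p under 0.05, and DESeq2 called 3 and limma voom 0. In formoterol against control 4 of 22 rose, 18.2% beside 5.76% of all tested genes. The hepatocyte markers' level in combination replicate 2, given above, moves with these medians, and its part in them beyond the values without it was not tested.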

How the data were processed

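RNA of differentiated HepaRG cells was measured by poly-A RNA sequencing in 4 libraries of each of 4 groups. The deposited table holds whole-number counts per gene that the authors made from aligned reads. Per the submitters' processing notes the build was mm39, a mouse genome, and the tools were HISAT2 2.0.5 and DESeq2. All 58735 gene IDs are human, however, and 0 are mouse, and all have the start and end of GENCODE release 29 (GRCh38), so the counts were read as human. Which program counted, and with what use of strand, was not given in the sources used here.

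Genes were filtered with filterByExpr, which left 18121, scaled with TMM and fitted with 4 group means over all 16 libraries by the quasi-likelihood test of edgeR 4.0.16 (12 residual degrees of freedom), with Benjamini-Hochberg adjustment over all tested genes and a threshold of 0.05. The code of the fit was tried on simulated counts in which all genes had the same dispersion and no library stood apart. That trial does not show how the fit behaves with a library such as combination replicate 2. Levels are TMM-scaled CPM of single genes, with no correction for length, so levels of different genes are not compared. Alternatives used DESeq2 1.42.0 and limma 3.58.1 in R 4.3.3, other scalings and filters, a replicate block, and each library left out in turn.

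By the rule for named genes, the text gives these. First come the 10 protein-coding genes that rose most and the 10 that fell most, of those called whose groups did not overlap and whose higher group had a mean of 2 CPM or more. Then come the called member of each list with the lowest p, and, under the same conditions, the 4 rises and 4 falls of greatest size that were called without combination replicate 2 but not with it, and 2 rises and 2 falls of long non-coding genes. The 4 greatest interactions each way, at 2 CPM or more in the highest group, and NR4A1, NR4A3, PPARGC1A, PDE4D and PCK1 complete the rule. The rule found 65 genes, and 62 are reported here. Other list members are named as examples of their list, chosen after their values were seen. The 36 lists hold 781 distinct genes, 708 of them tested. Members and lists were chosen with earlier results of these data known, so no list is independent evidence of its direction. A gene is said to overlap another where the other has more than 0.1 times its counts.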

Additional observations from a re-analysis of the deposited data

Results flagged for a closer look

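In 18 of 124 groups of 4 libraries of named genes 1 library stood far from the other 3, by its gap to the nearest library as a share of the group's range. Chance gives this in about 1 of 20 groups. In 11 of the 18 the library was combination replicate 2. It was the lowest for CRP (0.951), APOA2 (0.931), BAAT (0.902), PCK1 (0.897), CYP2B6 (0.896), DGCR6 (0.895), CYP2C8 (0.878), CXCL13 (0.877), ESRRA (0.866), AKR1B10 (0.851) and CYP3A4 (0.848). Over all tested genes 7.13% had a combination library apart by this measure, 58.7% of them replicate 2, and 5.18% a fatty acid library. Combination replicate 1 was the highest for ACACB (0.982) and ACADL (0.909) and the lowest for PPARGC1A (0.860). Among the fatty acid libraries replicate 1 was the lowest for ACADL (0.951), replicate 3 for GZMB (0.930) and MT1A (0.866), and replicate 4 for PLIN3 (0.889).

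For 24 named genes the formoterol effect with fatty acids differed from that without in edgeR's interaction test. The effect with fatty acids minus that without, on the log2 scale, was positive for LINC01411 (2.32), CRACR2B (2.04), CCR7 (1.96), ZDHHC11 (1.86), SLC16A8 (1.83), MAPK4 (1.56), C5AR2 (1.51), SDS (0.93), RASD1 (0.85), RGS2 (0.77), SLC7A2 (0.57) and ACACB (0.38). The calls of CRACR2B and SLC16A8 were lost in 15 and 12 of the alternative fits. The difference was negative for the genes that follow. They are CYP7A1 (−2.63), APOA2 (−2.42), CCL16 (−2.36), ENPP6 (−2.27), CYP2B6 (−1.80), CYP2C8 (−1.70), CYP3A4 (−1.65), CYP2A6 (−1.51), BAAT (−1.26), CX3CL1 (−1.23), RORA (−0.57) and CITED2 (−0.41).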

How the results depend on the processing

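The number of genes changed between the combination and fatty acids was 507 (304 up, 203 down). It was 880 (491 up, 389 down) with no filter on low counts, which tests more genes, 795 (464 up, 331 down) with DESeq2, 831 (407 down) with limma voom and quality weights, 275 (172 up, 103 down) when only the 8 libraries were fitted, and 913 (503 up, 410 down) when these were fitted without combination replicate 2. With each library left out in turn it ran from 302 to 590 (189 to 330 up, 113 to 260 down). Without fatty acid replicates 1, 2 and 3 the falls numbered 123, 135 and 113. The interaction, with 997 genes (384 positive, 613 negative), had 1523 (646 positive) with no filter, 629 positive with DESeq2, and 1030 positive and 351 negative with total counts only. With each library left out it ran from 444 to 1325 (170 to 558 positive, 274 to 767 negative). The library behind the lowest number is named in the report of the interaction, and the one behind the highest is not. The cause of these shifts was not tested where the setting itself does not give it.

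Same-numbered fatty acid and combination libraries deviated together with correlations of −0.000645 to 0.0825, so the numbers were not taken as pairs. With the replicate number as a block 537 genes changed (322 up, 215 down), and 529 (296 up, 233 down) also without combination replicate 2.

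Over 28 alternatives the values of the named genes kept their direction and side of the threshold 1841 times, lost the call 117 times, gained one 64 times and changed sign 2 times. Both changes of sign were APOA2 in the combination against fatty acids, which was not called: 0.071 without combination replicate 2, with −0.46 the lowest value on leaving out any library, and 0.076 when only the libraries compared were fitted without that replicate. Of 2016 list counts 315 moved by more than 1.5 times. With 4 libraries per group the median SE was 0.15 on the log2 scale, and genes of few counts are also limited by depth.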

Other observations

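Some of the genes with the smallest p fall outside the rule for named genes, and those given here were chosen after their values were seen. MUC13, a membrane mucin, stood at 42.6, 39.6, 38.5 and 35.6 CPM with fatty acids and at 120, 91.7, 122 and 113 CPM in the combination (1.51 ± 0.08, edgeR adjusted p = 5.12e-11). DIO2, the deiodinase that activates thyroid hormone, stood at 28.6, 27.6, 31.3 and 27.1 CPM against 54.8, 65.8, 56.3 and 53.7 CPM (1.01 ± 0.07, adjusted p = 8.13e-09). IL1RL1, the receptor of interleukin 33, stood at 95.3 to 101 CPM against 176 to 237 CPM (1.07 ± 0.07). IL18R1, a receptor subunit for interleukin 18, stood at 45.8, 50.2, 50.7 and 47.7 CPM against 95.4, 98.2, 94.6 and 94.8 CPM (0.98 ± 0.06). IL1RL1 and IL18R1 overlap on chromosome 2, so some reads may be shared. In these 4 genes the groups did not overlap.

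Other rises among these genes were SLC26A2, a sulfate carrier (0.95 ± 0.08), TNC, the matrix protein tenascin C (0.95 ± 0.10), TNS4 (1.38 ± 0.13), HOPX (1.11 ± 0.12) and CA12, a carbonic anhydrase (0.74 ± 0.06). SELENOP, the selenium carrier that liver secretes, stood at 666, 674, 705 and 678 CPM against 424, 375, 482 and 504 CPM (−0.61 ± 0.07, edgeR adjusted p = 1.76e-05). CTGF, a matrix-associated growth factor, stood at 82.1, 78.5, 82.7 and 94.5 CPM against 42.9, 62.4, 39.8 and 39.0 CPM (−0.88 ± 0.11, adjusted p = 5.00e-05), highest among combination libraries in replicate 2. ABCD2, a peroxisomal carrier of very long chain fatty acids, changed by −0.62 ± 0.08. The formoterol effect on DIO2 and IL18R1 was larger with fatty acids than without, by 0.99 (adjusted p = 1.08e-05) and 0.85 (adjusted p = 3.33e-06).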
